A study of Mus musculus with 24 samples.

Results

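Genes whose response to a high-fat diet (HFD) ran in opposite directions in male mice (M) and in ovariectomized female mice (F(OVX)) were taken from the interaction contrast, which is the difference M + HFD minus M + LFD less the difference F(OVX) + HFD minus F(OVX) + LFD, where LFD is the low-fat diet. The contrast rests on 16 of the 24 arrays, 4 in each of those 4 groups. A gene was a member if its diet differences had opposite signs in the 2 groups, and if they lay at least 1.5-fold apart at an unadjusted limma p under 0.05. Of 20765 genes tested, 1199 were members, of which 572 (2.75%) were higher in M + HFD and lower in F(OVX) + HFD, and 627 (3.02%) ran the other way. A gene symbol was at hand for 902 of them.

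The study asked how sex and ovarian hormones bear on colorectal cancer with obesity. C57BL/6J mice bought at 7 weeks of age had a sham operation (males, and the intact females, F) or ovariectomy, and were fed LFD with 10 kcal% fat or HFD with 45 kcal% fat for 14 weeks. Every group, LFD groups included, received a single injection of azoxymethane (AOM, a colon carcinogen) at 10 mg/kg and dextran sulfate sodium (DSS) at 1.5% in 3 cycles to injure the colon lining, so that no array shows an untreated colon. RNA came from what remained of the distal colon after a piece was taken for histology, and tumor, mucosa, muscle and immune cells were not separated, so a lower share of a cell type and less RNA per cell cannot be told apart.

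The colon lining renews itself from stem cells at the crypt base into absorptive colonocytes, mucus-making goblet cells and hormone-making enteroendocrine cells. Colonocytes draw much of their energy from short-chain fatty acids and carry enzymes for lipid, drug and bile acid handling, and their surface glycans differ along the length of the colon. Hox genes are expressed in blocks along the gut axis, and Hoxb13 and Hoxd13 belong to the block of the most distal colon. The ovary is the main source of estrogen in female mice, and ovariectomy removes it.

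No gene passed the Benjamini-Hochberg adjusted limma threshold for the interaction (smallest adjusted p = 0.665, and 1384 genes, 6.67%, at an unadjusted p under 0.05). Members were therefore chosen by unadjusted values and are described, not shown to differ. With the limit of 1.5-fold added, 1217 genes (5.86%) were called. Opposite signs alone were found in 11162 genes (53.8%), members made up 5.77% of all genes tested, and the other 18 called genes had diet differences of the same sign. Just inside the limit set on the limma p lay Ldhb (interaction -1.57) and Cryzl2 (0.90), and just outside it lay Cyp2j6 (-1.08) and Chst15 (0.68).

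The stricter group within the members were genes called in each group by itself. In M, 881 genes (4.24%) were called at 1.5-fold and p under 0.05, and in F(OVX) 447 (2.15%), 227 of them higher (1.09%) and 220 lower (1.06%) with HFD. Of the members, 480 were called in M, 243 in F(OVX), 47 in both and 523 in neither. Membership asks only for opposite signs and a called interaction, so a very small difference in either group has a sign that is not determined. The 47 called in both (0.226% of genes tested) comprised 24 higher in M + HFD and lower in F(OVX) + HFD (0.116%) and 23 the reverse (0.111%), whereas 6 genes (0.0289%) were called in both in the same direction. Leaving out each array in turn gave 13 to 131 such genes, which held from 11 of the 47 (without M + HFD replicate 2) to 44 (without M + LFD replicate 4). All 47 kept a called interaction each time, an outcome that their choice by calls in both groups favors. Of the 47, 32 had a symbol. The values of HFD and LFD arrays did not overlap in M for 154 of the 1199 members and in F(OVX) for 150, beside 2.57% and 2.22% of all genes tested. A larger share among members follows from their choice on these same arrays. With no diet effect, a fraction of 0.0286 of genes would show no overlap between 4 arrays and 4 others. The median absolute diet difference of the members was 0.73 in M and 0.48 in F(OVX) on the log2 scale, and 847 members had the larger difference in M.

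**Figure D1:**
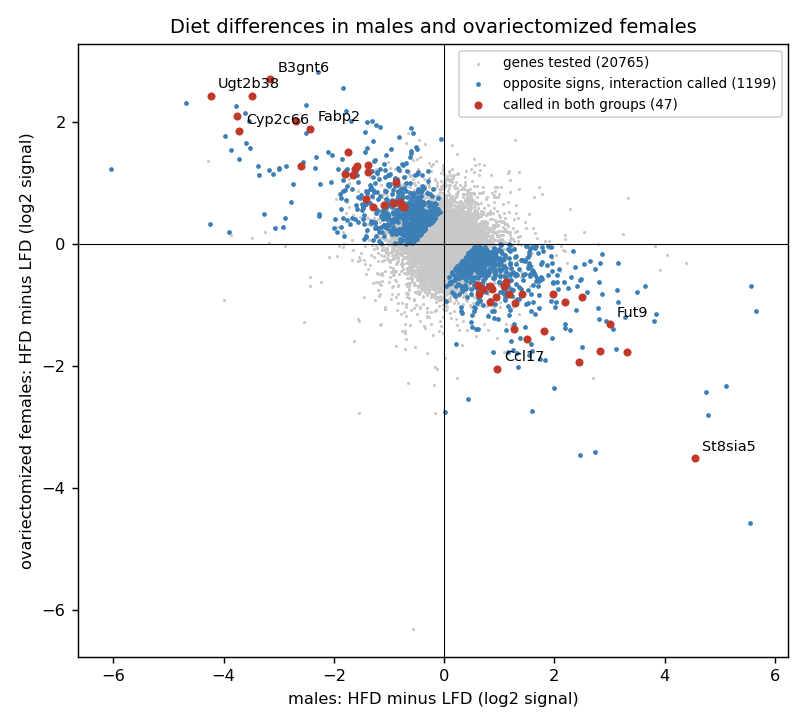
Each point is a gene, placed by its HFD minus LFD difference in males (x axis, log2 signal) and in ovariectomized females (y axis, log2 signal). Grey points are the 20765 genes tested, blue the 1199 members and red the 47 called in both groups. St8sia5 lies farthest out in the lower right (4.55 in M, -3.51 in F(OVX)) among the red points, and Ugt2b38 and B3gnt6 lie at the upper left.

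Sequence before the transcription start is shown for Cxcl1, a neutrophil-attracting chemokine among the genes higher in M + HFD, and for Fabp2, the intestinal fatty acid binding protein among the genes lower in M + HFD. They show 1 gene for each direction. Of the 22 symbol-bearing genes called in both that had an entry in the RefSeq promoter table (build GRCm38.p6), Cxcl1, Fabp2 and Slc16a9 (a carrier of the monocarboxylate transporter family) held any of 4 motifs searched on both strands: CCATAAA (of the kind bound by CDX factors), CAATAAA (HOX13-type), GGNNTTTCC (NF-kB-type) and CAAAGTCCA (HNF4-type). Each run is the 250 bases 5′ of the start, 5′ to 3′, with the motif letters in capitals.
Cxcl1 (chr5:90890995-90891244, plus strand): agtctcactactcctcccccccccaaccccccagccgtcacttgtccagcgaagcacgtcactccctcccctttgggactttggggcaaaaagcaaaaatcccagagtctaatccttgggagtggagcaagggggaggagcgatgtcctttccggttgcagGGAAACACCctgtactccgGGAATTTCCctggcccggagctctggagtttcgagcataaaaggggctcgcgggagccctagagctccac
Fabp2 (chr3:122894822-122895071, plus strand): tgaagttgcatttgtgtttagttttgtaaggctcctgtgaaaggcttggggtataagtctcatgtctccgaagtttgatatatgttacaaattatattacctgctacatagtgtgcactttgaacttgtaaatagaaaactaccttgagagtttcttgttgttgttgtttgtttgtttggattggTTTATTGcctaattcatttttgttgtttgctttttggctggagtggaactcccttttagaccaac
The capitals in Cxcl1 mark the NF-kB-type letters, read on the plus strand from 70 to 62 bases before the start and on the minus strand from 89 to 81 bases before it. In Fabp2 they mark the HOX13-type letters on the minus strand, from 65 to 59 bases before the start. The CDX-type letters stood in 2.58% of the 310 promoters of members higher in M + HFD, in 2.01% of the 399 of members lower in M + HFD and in 1.57% of the 10741 promoters of genes tested. For the HOX13-type letters these shares were 3.55%, 1.5% and 2.69%, for the NF-kB-type letters 6.77%, 3.76% and 5.0%, and for the HNF4-type letters 1.29%, 1.25% and 0.428%. A match describes the letters and not a bound site.

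Glycan-building enzymes included St8sia5, which had the largest interaction of the named genes. Of 44 tested genes in the list of mucin and glycolipid glycosyltransferases, 15 (34.1%, beside 5.77% of all genes) were members, 7 higher in M + HFD and 8 lower. The list's median diet difference was 0.11 in M and 0.20 in F(OVX), beside 0.01 and 0.01 over all genes, and its members pointed in both directions. St8sia5, a sialyltransferase that extends gangliosides, read 2.84, 2.01, 3.94 and 9.10 on the 4 arrays of M + LFD and 9.75, 10.26, 5.62 and 10.48 on those of M + HFD (log2 signal). In F(OVX) it read 8.26, 10.49, 7.36 and 10.20 with LFD and 6.83, 2.19, 6.45 and 6.80 with HFD. The diets overlapped in M through M + LFD replicate 4 and M + HFD replicate 3, and did not overlap in F(OVX). Its difference was 4.55 ± 1.65 (SE) in M and -3.51 ± 1.14 in F(OVX), 23.5-fold and 11.4-fold, with an interaction of 8.06 ± 2.17 (limma adjusted p = 0.665, exact permutation p = 0.00531). It was well above background on only 1 of 4 M + LFD arrays, so the low end of that fold change is poorly measured.

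Fut9, which adds the fucose of the Lewis x structure, was at 2.02, 2.03, 4.08 and 5.70 in M + LFD and at 6.77, 7.99, 4.88 and 6.18 in M + HFD. Its F(OVX) arrays gave 5.64, 7.06, 5.67 and 6.85 with LFD and 5.34, 3.95, 4.93 and 5.76 with HFD, so that the diets overlapped in each group. The difference was 3.0 ± 0.93 in M and -1.31 ± 0.46 in F(OVX). Fut9 was well above background on 1 of 4 M + LFD and 2 of 4 F(OVX) + HFD arrays. It met the filter on low signal through M + HFD alone, so its folds are poorly measured. B3gnt6, which makes the core 3 base of colonic mucin O-glycans, ran the other way. It read 11.20, 11.81, 10.91 and 8.44 in M + LFD and 5.17, 6.50, 11.28 and 6.77 in M + HFD. With ovariectomy it was at 8.24, 6.16, 8.68 and 6.82 on LFD and at 9.28, 11.94, 10.04 and 9.50 on HFD, where the diets did not overlap. Its difference was -3.16 ± 1.29 in M and 2.71 ± 0.71 in F(OVX). B4galnt1, which makes the ganglioside GM2, had differences of -2.03 in M and 1.46 in F(OVX), and B4galnt2 had -1.30 and 0.80.

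Mucus and goblet cell genes among the members all ran lower in M + HFD. These were 5 of 19 goblet cell genes tested (26.3%): Muc2 (the main secreted mucin, -0.44 in M and 0.27 in F(OVX)), Agr2 (-0.36 and 0.36), Spdef (-0.48 and 0.76), Atoh1 (-0.56 and 0.23) and Galnt12 (-0.52 and 0.49). None of the 5 was called in both groups. In M 0 of the 19 genes were called in either direction, and in F(OVX) 1 was called, higher with HFD. The list's median difference was 0.06 in M and 0.31 in F(OVX). Averaged over the 19 genes, arrays ran from 13.96 to 14.26 in M + LFD, 13.33 to 14.64 in M + HFD, 13.81 to 14.11 in F(OVX) + LFD and 14.16 to 14.46 in F(OVX) + HFD, so the average separated the diets in F(OVX) and not in M.

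Members for the uptake and use of fat were lower in M + HFD and higher in F(OVX) + HFD. Fabp2 was at 15.98, 16.05, 14.55 and 13.27 in M + LFD and at 10.64, 12.32, 15.15 and 12.01 in M + HFD. Its F(OVX) values were 13.14, 11.71, 14.30 and 10.80 with LFD and 13.81, 15.40, 14.70 and 13.62 with HFD. The diets overlapped in each group, and the differences were -2.43 ± 0.98 and 1.90 ± 0.74. Mogat2, which rebuilds triglyceride from absorbed fat, had -1.65 in M and 1.14 in F(OVX).

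All 7 members among 35 PPAR target and fat oxidation genes (20%) ran that way. Among them were Pparg (-0.79 in M and 0.48 in F(OVX)), Vnn1 (-2.25 and 0.99), Acads (-0.61 and 0.47), Cpt2 (-0.45 and 0.22) and Acadvl (-0.32 and 0.34). The list's median difference was -0.34 in M and 0.19 in F(OVX). Of 39 fatty acid and cholesterol synthesis genes, 5 (12.8%) were members, Acacb, Elovl6, Fads1 and Mogat2 lower in M + HFD and Fads2 higher. Ffar2, a receptor for short-chain fatty acids, had -1.62 in M and 1.23 in F(OVX).

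Detoxifying enzymes held members of both directions. Cyp2c66, a cytochrome P450, was at 14.33, 14.17, 10.35 and 8.88 in M + LFD and at 7.24, 6.81, 11.04 and 7.74 in M + HFD. The F(OVX) arrays gave 8.30, 8.49, 10.14 and 7.89 with LFD and 8.93, 12.43, 10.76 and 10.15 with HFD. In M the first 2 LFD arrays stood highest, and the diets overlapped in each group. The difference was -3.73 ± 1.41 in M and 1.86 ± 0.74 in F(OVX). Its neighbours in the family, Cyp2c65 (-3.98 and 1.77) and Cyp2c55 (-3.38 and 1.28), gave like values, and since these transcripts are near-identical in stretches a probe may read more than 1 of them. In the P450 list 6 of 24 genes (25.0%) were members, and the list's median difference was -0.11 in M and -0.02 in F(OVX). Its members higher in M + HFD were Cyp2f2 (3.16 and -0.95), Cyp2c40 (1.88 and -0.02) and Cyp2c68 (1.93 and -0.05). For Cyp2c40 and Cyp2c68 the F(OVX) difference was very small, so its sign is not determined. Ugt2b38, a UDP-glucuronosyltransferase, had -4.23 in M and 2.44 in F(OVX), and was well above background on 1 of 4 M + HFD arrays. Of 9 UDP-glucuronosyl and sulfotransferase genes tested, 4 (44.4%) were members, all lower in M + HFD. Members of the glutathione S-transferase list were 5 of 27 (18.5%), again all lower in M + HFD, with Nqo1 at -1.23 in M and 0.51 in F(OVX). Carboxylesterases gave 3 of 9 (33.3%), Ces1f (-1.80 and 1.15, with no overlap of the diets in F(OVX)) and Ces1g (-3.91 and 0.21) lower in M + HFD and Ces2g (1.08 and -0.22) higher.

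Members from the cytokine list were mostly higher in M + HFD. Of 62 cytokine, chemokine and receptor genes tested, 11 (17.7%) were members, 9 higher in M + HFD and 2 lower, and the list's median difference was 0.11 in M and -0.19 in F(OVX). Ccl17, which draws T cells that carry CCR4, read 5.0, 6.24, 6.49 and 6.25 in M + LFD and 7.62, 6.03, 6.90 and 7.27 in M + HFD. After ovariectomy it read 6.39, 6.88, 8.15 and 8.08 with LFD and 5.48, 5.05, 4.83 and 5.97 with HFD. The diets did not overlap in F(OVX), and in M they overlapped through M + HFD replicate 2. The difference was 0.96 ± 0.42 in M and -2.04 ± 0.44 in F(OVX), with an interaction of 3.0 ± 0.64 (limma adjusted p = 0.665, exact permutation p = 0.00204).

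Cxcl1 was at 4.19, 3.27, 4.99 and 5.63 in M + LFD and at 5.78, 7.49, 5.51 and 5.29 in M + HFD. The F(OVX) arrays gave 6.19, 3.72, 6.39 and 5.10 with LFD and 4.68, 3.36, 3.71 and 3.44 with HFD. These levels are low, and Cxcl1 was well above background on 2 of 4 M + LFD arrays and all 4 of M + HFD, and after ovariectomy on 2 with LFD and 1 with HFD. Its difference was 1.5 ± 0.61 in M and -1.55 ± 0.58 in F(OVX). Cxcl5 (1.99 and -2.35), Ccl20 (1.22 and -1.58), Ccl7 (0.90 and -1.21), Il18 (1.60 and -0.05), Il1rn (0.83 and -0.30), Il7 (0.64 and -0.43) and Il6ra (0.52 and -0.58) had the same pair of signs, and Ccl9 (-0.92 and 0.69) and Il1r1 (-0.56 and 0.15) the reverse. Nt5e, the enzyme that makes extracellular adenosine, had 1.98 ± 0.69 in M and -0.82 ± 0.29 in F(OVX). Markers of immune cells gave members in 1 of 7 neutrophil genes (14.3%, Cxcl5 itself), 1 of 21 macrophage and monocyte genes (4.76%), 1 of 24 T and NK cell genes (4.17%) and 0 of 18 B and plasma cell genes. The average of the 7 neutrophil genes went from 7.59 in M + LFD to 7.88 in M + HFD, and in F(OVX) from 8.15 with LFD (6.91 to 8.80) to 7.29 with HFD (6.95 to 7.62). This average includes the chemokine Cxcl5, so it is not separate from the chemokine values. The list's median difference was -0.10 in M, where its mean difference had the other sign, and -0.68 in F(OVX). The average of the 21 macrophage and monocyte genes ran from 9.73 to 10.07 in F(OVX) + LFD and from 9.22 to 9.81 in F(OVX) + HFD, with means of 9.65 in M + LFD and 9.73 in M + HFD, and the part of these cells in the chemokine values was not tested.

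Interferon-stimulated genes among the members were all lower in M + HFD, 9 of 45 tested (20%). Helz2, a helicase induced by interferon, was 1 of 4 genes (0.0193% of those tested) whose diets did not overlap in either group and stood in opposite order. It read 12.20, 12.81, 12.27 and 12.02 in M + LFD and 11.62, 11.44, 11.90 and 11.92 in M + HFD. In F(OVX) it read 12.08, 11.85, 11.54 and 11.81 with LFD and 12.17, 12.63, 12.17 and 12.59 with HFD. The differences were small, -0.61 ± 0.20 in M and 0.57 ± 0.18 in F(OVX), and the latter was under 1.5-fold. Gars, the glycyl-tRNA synthetase, was the other such member with a symbol, with -0.46 ± 0.18 in M and 0.42 ± 0.17 in F(OVX). For either gene the exact permutation p of the interaction was 0.000408, the smallest that 4900 diet assignments can give, before any adjustment over genes. The lack of overlap by which these genes were picked fixes that value, so it is no further evidence. Other interferon-stimulated members named here had small differences in F(OVX): Ifi44 had -1.98 in M and 0.41 in F(OVX), Oas3 -1.76 and 0.40, Irf7 -1.41 and 0.14 and Oasl2 -1.40 and 0.24. The list's median difference was -0.95 in M and 0.19 in F(OVX), with 16 of 45 genes called lower in M (1.78% of all genes were) and 0 called in F(OVX) in either direction.

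Members from the hypoxia and immediate-early lists were all higher in M + HFD. The hypoxia and glycolysis list gave 4 members of 31 (12.9%), and its median difference was 0.09 in M and 0.07 in F(OVX), so the list as a whole did not run in opposite directions. Egln3, an oxygen-sensing hydroxylase that hypoxia induces, read 9.34, 9.54, 9.51 and 9.84 in M + LFD and 10.50, 10.44, 10.99 and 10.60 in M + HFD, without overlap. With ovariectomy it was at 11.05, 10.67, 10.79 and 11.05 on LFD and at 10.50, 9.75, 11.03 and 10.22 on HFD, with overlap. The difference was 1.08 ± 0.17 in M and -0.52 ± 0.26 in F(OVX), and its M + LFD arrays were the lowest of the 4 groups but for F(OVX) + HFD replicate 2. Hif1a (0.89 and -0.34), Pfkfb3 (0.51 and -0.55) and Hk2 (0.49 and -0.54) were the other members of that list. Of 24 immediate-early genes 5 (20.8%) were members, Fosb (1.79 and -0.11), Maff (0.91 and -0.39), Rhob (0.83 and -0.16), Junb (0.66 and -0.34) and Ier2 (0.61 and -0.09), and the list's median difference was 0.41 in M and -0.04 in F(OVX). Stem cell genes gave 6 of 28 (21.4%), with Lgr5 (0.74 and -0.56), Smoc2, Lgr4 and Rnf43 higher in M + HFD and Cd44 (-1.07 and 0.28) and Ephb2 lower.

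Further lists are given by their counts. Calcium uptake genes Trpv6 (2.47 in M and -3.46 in F(OVX)) and S100g (2.73 and -3.41) were 2 of 6 (33.3%) in the vitamin D and calcium list, each well above background on 2 of 4 F(OVX) + HFD arrays. Enteroendocrine genes gave 5 of 26 (19.2%), with Nts (-2.75 and 0.99), Sct (-1.84 and 0.87) and Pcsk1 (-1.31 and 0.59) lower in M + HFD and Pyy (0.99 and -0.07) and Isl1 (1.29 and -0.51) higher. On M + LFD replicates 1 and 2, Nts (10.51 and 11.65) and Sct (14.03 and 13.63) stood above every other array. The steroid list, which includes the estrogen receptors, gave 2 of 15 (13.3%), the steroid enzymes Hsd3b2 (-1.58 and 1.13) and Hsd17b4 (-0.54 and 0.19). Retinoid metabolism gave 5 of 23 (21.7%), 3 higher and 2 lower in M + HFD, MHC class I 3 of 22 (13.6%), all lower, and the adipocyte list 2 of 7 (28.6%), both lower. No member was found among 30 proliferation genes, 19 smooth muscle genes, 13 MHC class II genes, 13 enteric neuron and glia genes and 16 clock genes. The median differences of the proliferation list still had opposite signs, -0.78 in M and 0.28 in F(OVX). Those of the other lists were -0.03 and 0.72 (smooth muscle), -0.13 and -0.42 (MHC class II), -0.12 and 0.32 (neurons and glia) and 0.44 and -0.09 (clock). Among cell type lists, mast cell genes gave 2 of 7 (28.6%), Cma1 higher (2.50 and -1.68) and Kit lower (-0.44 and 0.53) in M + HFD, epithelial genes gave 2 of 19 (10.5%), fibroblast and matrix genes 1 of 27 (3.70%) and endothelial genes 1 of 14 (7.14%). Epithelium was recognizable on all 24 arrays by the average of its genes, between 12.95 and 13.83, which does not tell the part of the gut. Smooth muscle genes, with no member, averaged 9.73 to 10.86 in F(OVX) + LFD and 10.84 to 11.90 in F(OVX) + HFD, against 10.73 to 11.41 and 9.99 to 11.60 in the M groups, and the part of this in the F(OVX) differences was not tested.

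**Figure D2:**
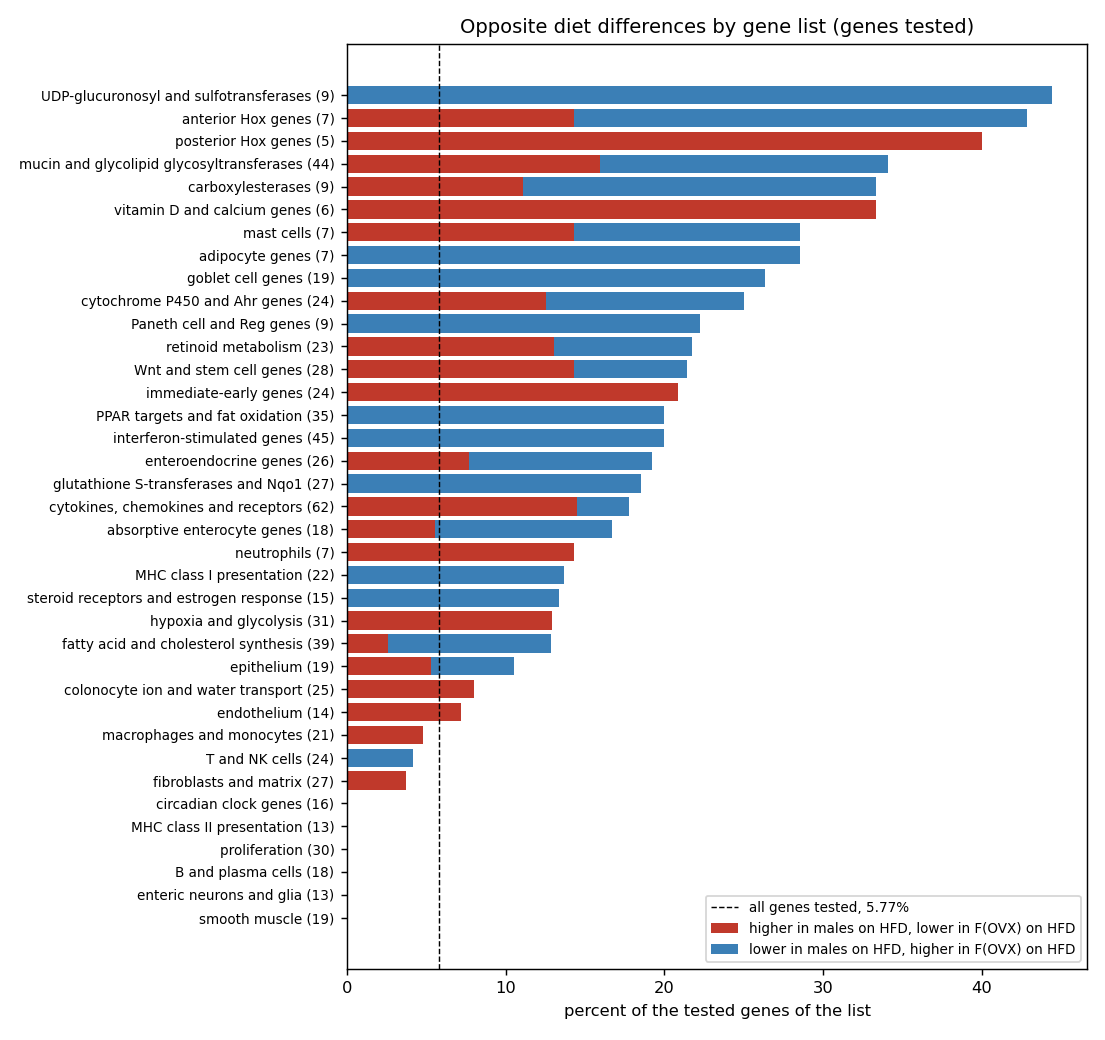
Bars give the percent of each list's tested genes (number in brackets) that were members, red for higher in M + HFD and lower in F(OVX) + HFD, blue for the reverse, and the dashed line is the 5.77% of all genes tested. Goblet cell, PPAR, interferon-stimulated, glutathione S-transferase and UDP-glucuronosyl bars are blue throughout, and immediate-early and hypoxia bars are red throughout.

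**Figure D3:**
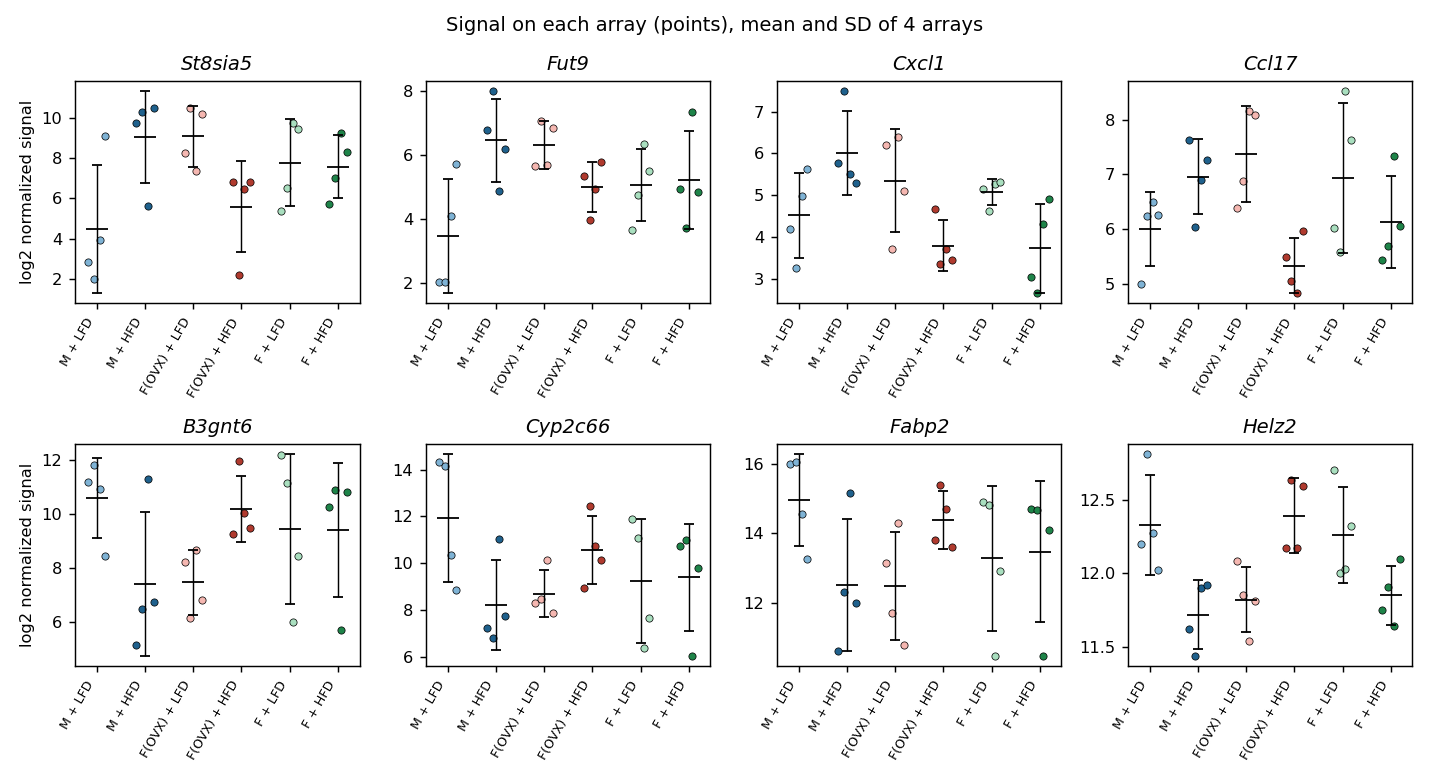
Log2 normalized signal (y axis) of 8 genes on each of the 24 arrays, by group (x axis), with the mean and SD of 4 arrays. In the top row the means of M + HFD and of F(OVX) + LFD lie above those of the other diet, in the bottom row below, and Helz2 alone of the 8 shows no overlap of the diets in M and in F(OVX).

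The members called in both groups moved, on average, with the markers of position along the colon. Hoxb13, highest in the most distal colon, was near background on the first 2 arrays of M + LFD (2.18 and 5.04), against a range of 12.58 to 14.79 over the remaining 22. Hoxd13 was at 8.53 or more on M + HFD replicates 1, 2 and 4 (11.38, 8.53 and 9.49), F(OVX) + LFD replicates 2 and 4 (10.87 and 10.07) and replicate 3 of both intact female groups (10.90 and 10.84), and at 6.46 or less on every other array. It was well above background on 1 of 4 M + LFD and 2 of 4 F(OVX) + HFD arrays, and met the filter on low signal through M + HFD alone. Both genes were members themselves, with differences of 5.56 in M and -0.69 in F(OVX) for Hoxb13 and 4.75 and -2.42 for Hoxd13. Cdx2, a transcription factor of the intestinal lining, was a member with the opposite signs, -1.77 ± 0.53 in M and 1.16 ± 0.52 in F(OVX), and Hoxb6 (-3.27 and 0.50) and Hoxb7 (-2.92 and 0.28), of the more anterior block, had those signs too. Hoxa5, also of the anterior block, was a member with the signs of Hoxb13 instead (0.37 and -0.74). The other posterior genes tested were not members: Hoxa10 (0.69 and -0.06), Hoxa13 (1.98 and -0.04) and Hoxa11, which had the reverse signs (-0.33 and 0.40).

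Per array, the Hox difference was taken as the mean log2 signal of 14 more anterior Hox genes less that of 9 posterior ones, of which 7 and 5 passed the filter on low signal. It was 3.94 and 2.46 on M + LFD replicates 1 and 2, -0.88 and -0.98 on the other M + LFD arrays, and between -3.21 and -0.26 on the other 20 arrays. The mean deviation of the 24 genes called in both and higher in M + HFD was lowest on those same 2 arrays (-1.90 and -1.80), and that of the 23 lower in M + HFD was highest there (1.93 and 1.85). At the other end, the Hox difference was -3.12 and -2.52 on F(OVX) + LFD replicates 2 and 4, where the 24 genes stood at 1.09 and 1.16 and the 23 at -1.27 and -1.51. Both sets were chosen on the M and F(OVX) arrays, so extreme deviations there follow in part from the choice and are no separate evidence. The intact females, whose arrays the contrast did not use, gave the same pairing within a diet: replicate 3 of F + LFD and of F + HFD had Hox differences of -3.14 and -3.13, deviations of 0.98 and 0.77 for the 24 genes and of -1.74 and -1.85 for the 23, while on the other 6 intact female arrays the deviations lay between -0.46 and 0.43 and between -0.39 and 1.16.

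**Figure D4:**
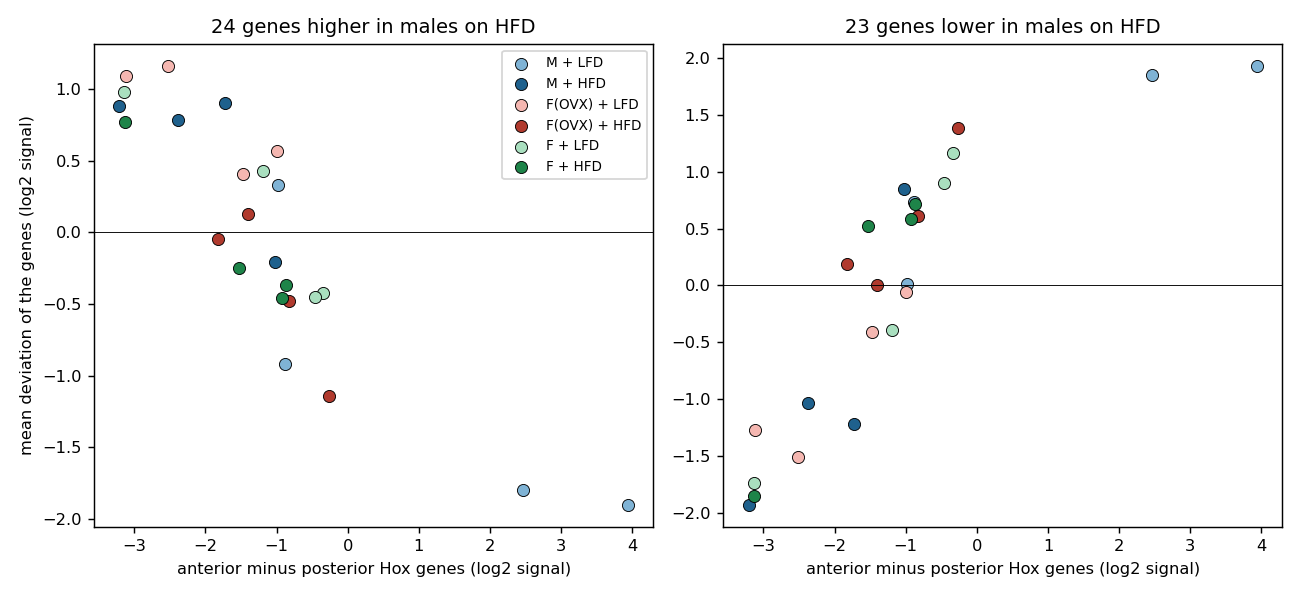
Each point is an array, placed by its anterior minus posterior Hox difference (x axis, log2 signal) and by the mean deviation (y axis, log2 signal) of the 24 genes (left) or 23 genes (right) called in both groups, colored by group. The genes were chosen on the M and F(OVX) arrays, and the green intact female arrays played no part in the choice. Of these, F + LFD and F + HFD replicate 3 lie at the far left, highest of the green points in the left panel and lowest in the right. No slope was fitted.

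With the Hox difference as a covariate, the median absolute interaction of the 1199 members went from 1.23 to 0.53 while its median standard error went from 0.46 to 0.51. Under that covariate 84 members (7.01%) were still called and 1109 kept the sign of the interaction, 346 genes were called in all, and 6 were called in both groups. Of the 47 genes called in both, 10 kept a called interaction. The Hox difference itself averaged 1.14 in M + LFD and -2.08 in M + HFD, and -2.02 in F(OVX) + LFD and -1.08 in F(OVX) + HFD. It was also built in part from Hox genes that were members, so some of the fall may follow from how it was made. Whether colon position caused the diet differences was not tested. Without M + LFD replicates 1 and 2, 414 members (34.5%) were still called, 45 of the 47 kept a called interaction and 4 genes were called in both groups. Of the 30 proliferation genes, 22 then had opposite signs and a called interaction, against 0 with all 16 arrays. Counts fell in most of the lists described above. Glycosyltransferases went from 15 to 7 without M + LFD replicates 1 and 2 and to 0 with the Hox covariate, goblet cell genes from 5 to 2 and 0, PPAR genes from 7 to 3 and 0, and glutathione S-transferases from 5 to 1 and 0. Interferon-stimulated genes went from 9 to 5 and 1, cytokines from 11 to 7 and 3, immediate-early genes from 5 to 3 and 3, and hypoxia genes from 4 to 3 and 2. Enteroendocrine genes went from 5 to 0 and 0, and MHC class I genes from 3 to 0 and 0. The steroid, the mast cell, and the Paneth cell and Reg lists each went from 2 to 0 and 0. By the array positions in the scanner file names, LFD lay on row 1 and HFD on row 2 of each slide, with M, F and F(OVX) on a slide each, so slide and group, and row and diet, cannot be told apart.

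**Figure D5:**
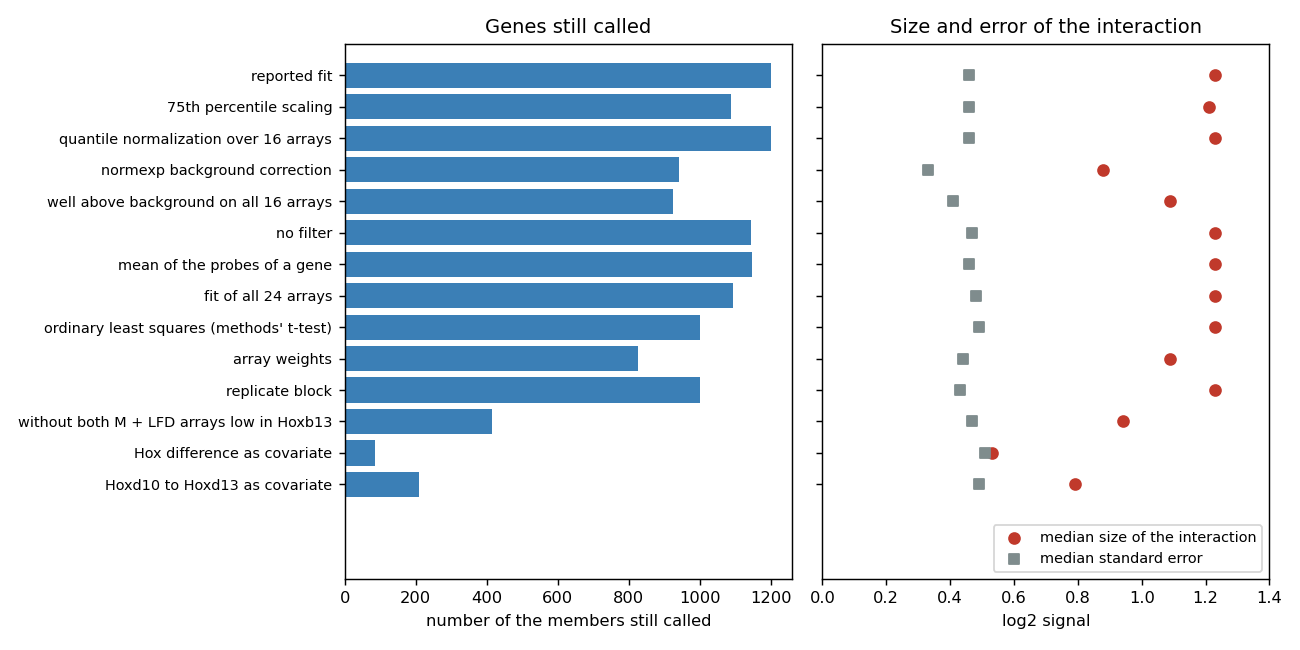
Left, the number of the 1199 members that were still called (x axis) under each setting (y axis). Right, the median absolute interaction (circles) and its median standard error (squares) of the members, in log2 signal, which come together at 0.53 and 0.51 with the Hox difference as covariate.

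In intact females the members' diet differences lay on both sides of 0, with a median absolute difference of 0.18 for the 572 and 0.17 for the 627, beside 0.14 over all genes tested. Of the 572 members higher in M + HFD, 267 lay above 0 in intact F (46.7%, beside 49.9% of all genes tested), with a median difference of -0.03. Of the 627 lower in M + HFD, 309 lay above 0 (49.3%), with a median of -0.01. In intact F 199 genes (0.958%) were called, 76 higher (0.366%) and 123 lower (0.592%) with HFD, among them 1 member called higher and 6 called lower of the 572, and 2 called higher and 0 called lower of the 627. The intact F difference lay between those of M and F(OVX) for 1118 members (93.2%), an interval that the choice of members makes wide. Of the 24 genes called in both and higher in M + HFD, Cxcl1 (-1.35) and Nt5e (-0.91) were called lower in F + HFD, the direction they had in F(OVX) + HFD (exact permutation p = 0.0571 for each). Cxcl1 read 5.14, 4.62, 5.26 and 5.31 in F + LFD and 3.04, 2.66, 4.31 and 4.92 in F + HFD. St8sia5 had -0.18 in intact F, B3gnt6 -0.03, Cyp2c66 0.14 and Fabp2 0.20, each with F + LFD and F + HFD values that overlapped.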

How the data were processed

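Colon RNA of 24 mice was hybridized to Agilent 1-color arrays. The authors read the scans with Feature Extraction (version 11.0.1.1, per the labels). They deposited linear spot intensities (processed signal, with mean signal and background beside it) that had not been normalized between arrays, and flags of 0 or 1 (other values, deposited) for outlier spots and for spots well above background.

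Processed signal of 59305 non-control spots was log2-transformed and quantile-normalized over 24 arrays, with outlier spots set to missing. The brightest probe stood for a gene, which entered the fit where that probe had all 4 arrays of any of the 4 groups well above background. Symbols came from a RefSeq table (GRCm38.p6) by accession, for 32994 of 56605 probes (58.3%). The array header names another build, so its coordinates were not used. Fits were made in R 4.3.3 with limma 3.58.1 (lmFit, eBayes), and the code was tested on simulated data. The study's own test, an independent t-test at the same thresholds, was run as an alternative. In exact permutations, the diets were reassigned within a group (70 assignments, smallest p 0.0286) or over both groups (4900), two-sided, with no diet effect in either group as the null. Precision is limited by the few arrays per group, on which 40.5% to 61.9% of probes stood well above background.

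The members and gene lists were chosen with earlier results of these data known, so counts per list are descriptions. Genes named were, among those with a symbol, up to 15 per direction called in both groups, those without overlap of the diets in both groups, up to 3 per list and the Hox genes. Other list members named were chosen after their values were seen, and a few genes are not reported here. Groups were taken from the labels, which give 4 animals each, fewer than the methods. Deviations of same-numbered samples correlated at -0.23 to 0.07 in M and at -0.07 to 0.33 in F(OVX). Not every pair was above 0.1, so the numbers were not used as pairs. Alternatives were another scaling, background correction, filter, probe rule, fit, array weights, a replicate block, leaving out arrays, and Hox covariates.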

Additional observations from a re-analysis of the deposited data

Results flagged for a closer look

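Among 136 groups of 4 arrays looked at for the genes called in both groups or separated in both, and for Hoxb13 and Hoxd13, 5 had an array whose gap to the nearest other, over the group's range, was above Dixon's critical value, and chance flags about 1 in 20 groups. St8sia5 was 5.62 on M + HFD replicate 3 (others 9.75 to 10.48) and 2.19 on F(OVX) + HFD replicate 2 (others 6.45 to 6.83). Ccl17 was 5.0 on M + LFD replicate 1 (others 6.24 to 6.49). Ces1f was 11.59 on F(OVX) + HFD replicate 2 (others 9.42 to 9.53). Cadm4, a cell adhesion molecule, was 3.52 on F(OVX) + LFD replicate 3 (others 4.70 to 4.86), the array with the fewest probes well above background (40.5%).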

How the results depend on the processing

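The 1199 genes with opposite diet differences, 572 higher and 627 lower in M + HFD, became 346, 204 and 142 with the Hox difference as covariate. With the mean of Hoxd10 to Hoxd13 as covariate, chosen after seeing the data, there were 652 genes, 232 of them higher in M + HFD, and 15 of 19 smooth muscle genes were then among them. Leaving out each array in turn gave 765 (without F(OVX) + HFD replicate 2) to 1773 (without F(OVX) + LFD replicate 3) genes, 357 to 986 higher and 408 to 890 lower. The 47 genes called in both groups became 3 by the methods' t-test, 25 with array weights, 4 without M + LFD replicates 1 and 2, 6 with the Hox difference and 8 with Hoxd10 to Hoxd13 as covariate, and 13 to 131 when each array was left out. They fell to 28 or fewer without any of M + LFD replicates 1 and 2, M + HFD replicates 1, 2 and 4, F(OVX) + LFD replicates 2 and 4 and F(OVX) + HFD replicates 2 and 3, and numbered 104, 131 and 117 without M + LFD replicate 4, M + HFD replicate 3 and F(OVX) + LFD replicate 3. With the replicate number as a block they became 80, of which 27 were among the 47, although the numbers were not taken as pairs, since the 4 correlations were -0.23 to 0.07 in M and -0.07 to 0.33 in F(OVX). All 47 kept a called interaction when each array was left out in turn, and under the 75th percentile scaling and the methods' t-test. Their choice by calls in both groups favors that outcome. Of the 30 that are named, 28 kept a called interaction without M + LFD replicates 1 and 2, 5 with the Hox difference and 14 with Hoxd10 to Hoxd13 as covariate. No gene passed the adjusted limma threshold under any alternative run, with 372 to 2023 genes at an unadjusted p under 0.05. The interaction of 10 named genes changed sign with the Hox difference as covariate: Hoxb13 (-1.40), Hoxb6 (0.75), Hoxb7 (0.83), Alpi (0.73), Best2 (-0.27), Nts (1.03), Sct (0.74), Ces2g (-0.02), Gstk1 (0.03) and Isx (0.56). The cause of these changes was not tested. Normexp background correction kept 940 of the 1199 members and lowered their median absolute interaction to 0.88, and requiring signal on all 16 arrays left 923. Genes near background, such as Cxcl1, St8sia5, Fut9, Atp12a, Slc15a1 and Ugt2b38, have the least certain folds.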

Other observations

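Other members called in both groups and not described above were, among those higher in M + HFD, Defb45, an antimicrobial defensin (3.31 in M and -1.76 in F(OVX)), Timp4, an inhibitor of matrix metalloproteinases (2.82 and -1.75, and 2.19 and -1.73 on another probe), Apobec2, a muscle-expressed deaminase relative (2.45 and -1.93), Ttr, a carrier of thyroid hormone and retinol binding protein (2.19 and -0.95), and Cldn14, a tight junction protein (1.41 and -0.82). Among those lower in M + HFD were Apol10a, an apolipoprotein L (-3.75 and 2.11), Kcnh3, a potassium channel (-2.68 and 2.02), Chrnb4, a nicotinic receptor subunit (-1.74 and 1.52), and Etv5, an ETS transcription factor (-1.39 and 1.18). The antimicrobial lectins Reg3b (-6.05 and 1.24) and Reg3g (-4.25 and 0.34) had large differences in M and were not called in F(OVX), and Reg3b was well above background on 2 of 4 M + HFD arrays. Atp12a, the colonic proton pump of potassium uptake, had 5.12 in M and -2.32 in F(OVX), and was well above background on 1 of 4 M + LFD arrays. Slc15a1, a peptide transporter, had 3.07 and -1.39, and was well above background on 2 of 4 M + LFD and 1 of 4 F(OVX) + HFD arrays. Lpl and Cidec, genes of fat storage, had -1.47 and 0.42, and -3.06 and 0.26.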
